A study of Mus musculus with 3 samples.

Results

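Type 1 conventional dendritic cells were examined among leukocytes of mouse melanoma grafts taken at 3 ages. They were picked cell by cell from the deposited raw counts: at least 2 counts of Xcr1 and Clec9a together, at least 1 count of Flt3 and Wdfy4 together, at most 1 count of Fscn1, fewer than 10 counts of C1qa, C1qb and C1qc together, at most 1 count of Cd3d, Cd3e and Cd3g together, and at most 1 count of Ncr1 and Klrb1c together. This rule found 58 of 43730 cells, split by age as 30, 11 and 17. The rule uses measured values, so the levels of these 13 genes in the chosen cells are a description of the choice.

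The study injected 500000 YUMM1.7 cells, a mouse melanoma line, under the skin of mice aged 4, 12 or 20 months, with 7 mice per age. Tumours were collected at 18 days, and live cells (DAPI negative) that carried CD45, a surface protein of leukocytes, were sorted with an antibody to CD45.2. Single-cell 3′ libraries were made with a PIP-seq kit, which partitions cells and barcoded beads by shaking, and were sequenced on an AVITI instrument. Each age is 1 library. The labels used here give no strain, no sex and no account of how the 7 mice were combined, and no treatment other than the graft, so the 4-month, 12-month and 20-month groups differ by age alone as labelled. With 1 library per age no difference between ages has a replicate check and no test was made. Values are given with 95% intervals that cover counting error only, and the depth of an age, its processing and its mice cannot be told apart from the age itself.

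The 3 libraries held 14393, 14653 and 14684 cells with 110371225 to 127850782 counts, and the median cell had 6789 to 7411 counts. No library stood apart in cell number or depth. Between 2 and 4 cell barcodes were shared by each pair of libraries, and none of them belonged to a dendritic cell described here. The chosen cells had median counts of 8070, 6131 and 7072 at 4, 12 and 20 months, and together 250241, 77381 and 136971 counts. A gene's level is given in CPM, its share of the summed counts of the cells in 1 library scaled to 1000000. Because reads come from the 3′ end, levels are compared between cells and not between genes.

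Type 1 conventional dendritic cells take up material from dying cells and present it on MHC class I to CD8 T cells, a process called cross-presentation. They grow under the cytokine FLT3 ligand, require the transcription factors IRF8 and BATF3, and follow the chemokine XCL1 from NK and T cells through its receptor XCR1. In mouse tumours they are known for carrying tumour antigen to lymph nodes and for making CXCL9, CXCL10 and interleukin 12, which bring in and support T cells.

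The 4 positive genes were examined first. Xcr1 encodes the chemokine receptor and lies on chromosome 9, 123852315 to 123862029, minus strand (GRCm38). Clec9a encodes a receptor for exposed actin filaments of dead cells and lies on chromosome 6, 129408862 to 129424763, plus strand. Its annotated exons overlap those of Clec1b on the same strand, so part of its counts could belong to that gene. Wdfy4 encodes a protein required for cross-presentation of cell-bound antigen and lies on chromosome 14, 32959547 to 33185508, minus strand. Flt3 encodes the growth factor receptor and lies on chromosome 5, 147330741 to 147400489, minus strand.

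Xcr1 stood at 196 CPM at 4 months, 233 at 12 months and 365 at 20 months in the chosen cells, from 49, 18 and 50 counts. Clec9a stood at 276, 323 and 277 CPM. The T cells used for comparison, with at least 10 counts of Cd3d, Cd3e and Cd3g, hold no count of either gene by their definition. At 4 months 12 cells had both transcripts, 4 had Xcr1 alone and 14 had Clec9a alone. At 20 months 14 of the 17 cells had both, 1 had Xcr1 alone and 2 had Clec9a alone. The 12-month cells fell between, with 5, 1 and 5. Wdfy4 stood at 879, 814 and 1095 CPM and Flt3 at 199.8, 271 and 263 CPM, against at most 9.59 and 3.35 CPM in T cells.

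Some chosen cells did not carry the other genes of the type. In 10 of them, 6 at 4 months, 3 at 12 months and 1 at 20 months, Siglech, a receptor of plasmacytoid dendritic cells, had at least 2 counts, and each of these also had Ccr9, Ly6d or Pacsin1, further markers of those cells. None of the 10 had a count of Xcr1. Their Tcf4, the transcription factor that defines plasmacytoid dendritic cells, stood at 3572, 5728 and 2969 CPM. Tcf4 stood at 187, 640 and 162 CPM in the other 48. Naaa, a lysosomal amidase high in type 1 dendritic cells, was at 0 at 4 and 12 months and 141 CPM at 20 months in the 10, against 1066, 1165 and 1363 CPM in the 48. Cst3, the protease inhibitor cystatin C that all conventional dendritic cells make, stood at 487, 609 and 1273 CPM in the 10 and at 11160.0, 11498 and 10223 CPM in the 48. The data therefore go against the label for these 10 cells, which met the rule through Clec9a, a gene that plasmacytoid dendritic cells of mice also transcribe. Siglech, Tcf4 and Cst3, and further on Trac, Lyz2, Il12b and Ccr7, were singled out after their values had been seen.

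The limit on T-cell transcripts removed most cells that met the other criteria. Of 276 cells that met the positive criteria and the Fscn1 and C1q limits, 83, 77 and 116 by age, 183 were turned away by the Cd3 limit alone and 5 by the NK limit alone. Their Cd3 sum had a median of 2, 4 and 3.5 counts at 4, 12 and 20 months. Macrophages, taken as cells with at least 30 C1q counts, make no CD3, and their Cd3 sum had a median of 2, 5 and 3 counts. T cells had medians of 20, 22 and 20. The Cd3 limit was met by 41.0% (95% interval 30.3 to 52.3), 15.6% (8.32 to 25.6) and 14.7% (8.78 to 22.4) of the Xcr1 and Clec9a cells, and by 33.0%, 9.25% and 17.7% of the macrophages. In both cell types the 4-month library had the most cells under the limit.

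**Figure D1:**
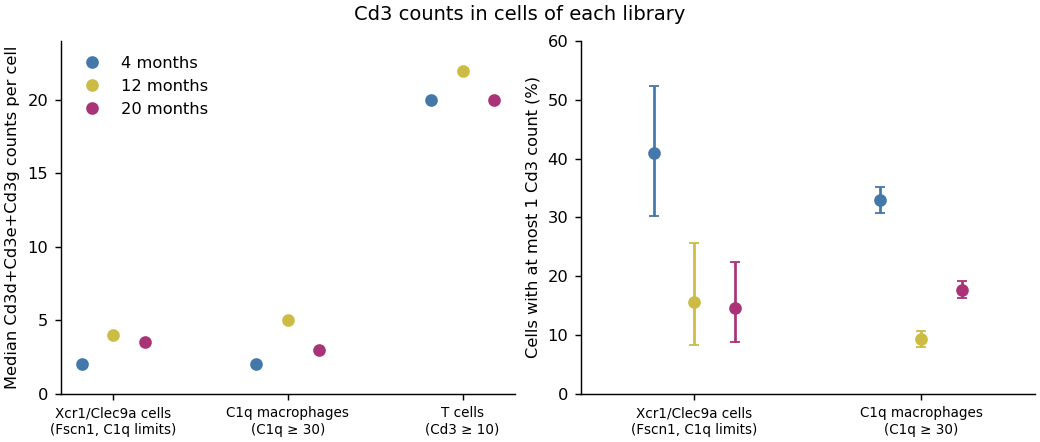
Left, median summed counts of Cd3d, Cd3e and Cd3g per cell in each library, for cells meeting the positive, Fscn1 and C1q criteria, C1q macrophages and T cells. Right, percent of cells with at most 1 such count with 95% Clopper-Pearson intervals. The medians of the Xcr1 and Clec9a cells (2, 4 and 3.5) lie beside those of the macrophages (2, 5 and 3) and far under those of the T cells (20 to 22).

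Cells just outside the Cd3 limit were read beside those inside it. With a Cd3 sum of 2 or 3 there were 21, 17 and 40 such cells, and their Naaa stood at 827, 873 and 1388 CPM. The chosen cells with a sum of exactly 1 numbered 19, 10 and 13, with Naaa at 1087, 837 and 1311 CPM. Irf8 stood at 641, 408 and 926 CPM outside and at 885, 823 and 692 CPM inside, and Batf3 at 82.7, 57.3 and 169.8 CPM outside and at 127, 154 and 144 CPM inside. Both were lower outside at 4 and 12 months and higher at 20 months. Lyz2 stood at 1441, 1052 and 535 CPM outside and at 832, 712 and 674 CPM inside. Trac, the T-cell receptor alpha chain, stood at 82.7, 229 and 112 CPM in the cells outside, against 1582, 1453 and 1290 CPM in T cells. A second population was therefore described beside the 58: the lymphocyte limits were set to fewer than 10 counts each and Siglech to at most 1 count. It holds 232 cells, 69, 57 and 106 by age, and includes the 48. Its median counts per cell were 11051, 10567 and 9188, and its totals were 736653, 641773 and 996859 counts. It is called the wider set below, and it was used for the comparisons of genes, where 58 cells give few counts. The wider set was defined with these Cd3 values known.

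The limit on Xcr1 and Clec9a was read in the same way. Cells of the 58 with a sum of exactly 2 numbered 11, 4 and 2, and their Naaa stood at 468, 406 and 685 CPM. Some of the 10 Siglech cells were among them, with Siglech at 496, 997 and 685 CPM. Cells with a sum of 1 that met all other criteria numbered 37, 11 and 13, with Naaa at 382, 210 and 412 CPM and Lyz2, the lysozyme of monocytes and macrophages, at 4706, 2881 and 2410 CPM. Siglech in these stood at 438, 825 and 509 CPM. In the wider set, which leaves Siglech cells out, Naaa stood at 623, 951 and 1109 CPM in cells with a sum of 2. With a sum of 1 and the same other limits Naaa stood at 439, 476 and 512 CPM. Lyz2 in the 58 cells stood at 811, 659 and 672 CPM, under the 859, 763 and 719 CPM of T cells in each library.

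Among all deposited cells the 58 made up 0.208% (95% Clopper-Pearson interval 0.141 to 0.297) at 4 months, 0.0751% (0.0375 to 0.134) at 12 months and 0.116% (0.0675 to 0.185) at 20 months. The share was lower by 0.133 percentage points at 12 months, a difference of -0.133 (Newcombe interval -0.228 to -0.0473). At 20 months the difference from 4 months was -0.0927 (-0.192 to 0.000782). The wider set gave another order. It made up 0.479% (0.373 to 0.606), 0.389% (0.295 to 0.504) and 0.722% (0.591 to 0.872) of cells, a difference of -0.0904 (-0.245 to 0.0620) at 12 months and 0.242 (0.0647 to 0.423) at 20 months. The direction at 20 months thus depends on the Cd3 limit, which 33.0% of macrophages met at 4 months and 17.7% at 20 months. It depends on the C1q limit too: with fewer than 3 C1q counts the wider set held 29, 12 and 21 cells and the difference was -0.0585. C1qa stood at 132, 171 and 236 CPM in the wider set and at 151, 184 and 251 CPM in T cells, and the part of that RNA in the share was not tested.

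Among dendritic cells of the classes described here, each taken by its own genes with the same lymphocyte limits, the 58 were 30 of 128 (23.4%), 11 of 51 (21.6%) and 17 of 61 (27.9%). The wider set was 69 of 306 (22.5%), 57 of 305 (18.7%) and 106 of 290 (36.6%). The other classes were type 2 dendritic cells with Cd209a, mature dendritic cells with Fscn1 and Ccr7, and plasmacytoid dendritic cells with Siglech. Each of them allowed at most 1 count of Xcr1 and Clec9a together. Cells with at least 2 Siglech counts that otherwise met the wider limits, 11, 10 and 3 by age, were therefore in neither the wider set nor its denominator. For the wider set the difference from 4 months was -3.86 percentage points (-10.3 to 2.57) at 12 months and 14.0 (6.69 to 21.1) at 20 months. The highest share of type 1 cells among dendritic cells was at 20 months by both rules. For the 58 the 20-month difference was 4.43 (-8.16 to 18.3), and without the Siglech cells it was 6.99 (-5.41 to 20.8). Both of these intervals include no change.

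**Figure D2:**
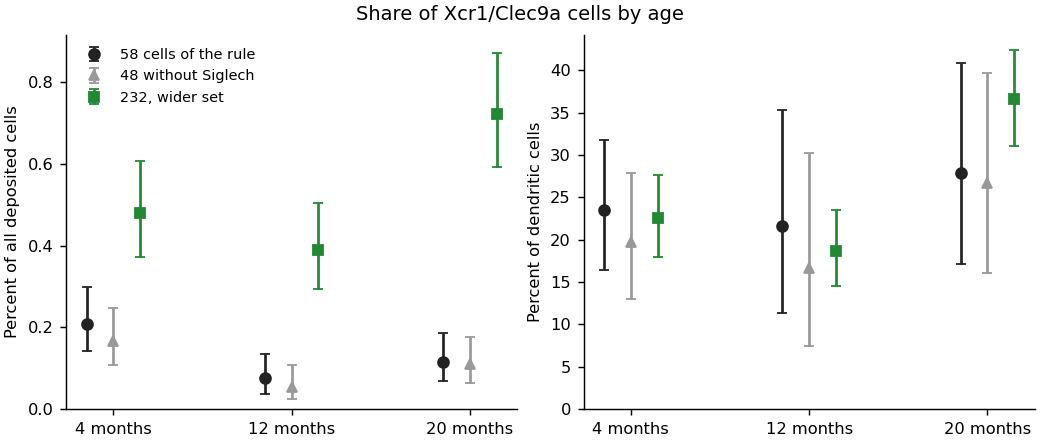
Percent of all deposited cells and of the dendritic cells of the classes described here made up by the 58 cells, by the 48 without Siglech and by the wider set of 232, per library, with 95% Clopper-Pearson intervals. The 58 cells are the largest share of all cells at 4 months (0.208%), the wider set at 20 months (0.722%).

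The label was then checked against 27 further genes listed for the type that the rule does not use, read in the same cells and therefore as a description. A gene counted as above other classes when its lowest level over the 3 libraries exceeded their highest level in any library. By this measure 18 of the 27 stood above C1q macrophages and T cells in the 58 cells, and 21 did in the wider set. Against the 3 other dendritic classes, 17 of the 27 stood above by the same measure in the wider set. The transcription factor Irf8 stood at 703, 698 and 803 CPM in the wider set, against at most 143.6 CPM in macrophages or T cells, but plasmacytoid dendritic cells reached 1062 CPM. Batf3 stood at 159, 139 and 151 CPM against at most 71.1 CPM in macrophages or T cells. Zbtb46, a factor of conventional dendritic cells, stood at 105, 111 and 123 CPM. Id2, the repressor that favours conventional over plasmacytoid fate, stood at 1372, 1265 and 1375 CPM and was also high in T cells, at 985 to 1062 CPM.

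Cd24a, Itgae, Naaa and Tlr3 were among those 17 genes. Cd24a, which encodes a small anchored glycoprotein, stood at 247, 302 and 320.0 CPM and at most at 48.7 CPM in any other dendritic class. Itgae, the CD103 integrin of tissue type 1 dendritic cells, stood at 124, 154 and 191 CPM, and at most at 24.4 CPM in the others. Naaa stood at 1074, 1139 and 1324 CPM against at most 237 CPM. Tlr3, the endosomal receptor for double-stranded RNA, stood at 137, 149.6 and 218 CPM against at most 22.9 CPM. Ly75 did not stand apart, with a lowest level of 39.4 CPM against up to 209.6 CPM in another dendritic class. Notch2 was not among the 17, as its lowest level of 137 CPM was under 138 CPM in type 2 dendritic cells of another library. Within each library Notch2 stood higher, at 143, 137 and 164 CPM against 120, 104 and 138 CPM in type 2 dendritic cells, the highest other class.

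Genes were then ranked, among those at 100 CPM or more that the rule does not use, by the lowest log2 ratio over the 3 libraries against the highest of the other dendritic classes. Rab7b, a small GTPase of late endosomes, led with 2.82, followed by Tlr3 with 2.71, Cd24a with 2.701 and Ppt1, a lysosomal thioesterase, with 2.64. Next came Itgae with 2.49, Ccser1 with 2.41, Cxcl9 with 2.35, Naaa and Cadm1 with 2.18 each, Gatm with 2.17 and Mctp1 with 2.15. Hist1h2ap with 1.97, Slc8b1 with 1.91 and Cdk14 with 1.66 were also among the 15. Among the 58 the same ranking was led by Ppt1 with 2.60, Cdk14 with 1.80, Cxcl9 with 1.76 and Naaa with 1.62. Cxcl9 is the chemokine in this list that calls CXCR3-bearing T cells, and Ppt1 and Naaa both work in the lysosome.

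Some listed genes did not mark the cells. Zeb2, a factor of plasmacytoid and type 2 dendritic cells, stood at 114, 76.4 and 53.2 CPM in the wider set, against up to 439 CPM in macrophages or T cells. Cd8a, which marks the resident type 1 dendritic cells of lymphoid organs, stood at 63.8, 103 and 96.3 CPM, while macrophages of the same libraries stood at 61.4, 96.7 and 85.0 CPM and T cells at 740.3, 662 and 700.3 CPM. The integrin Itgax, or CD11c, stood at 111, 103 and 155 CPM, beside 139, 105 and 109.8 CPM in macrophages. Nfil3, a factor of early dendritic cell commitment, stood at 12.2, 14.0 and 12.0 CPM, beside 11.5, 11.5 and 10.1 CPM in T cells.

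**Figure D3:**
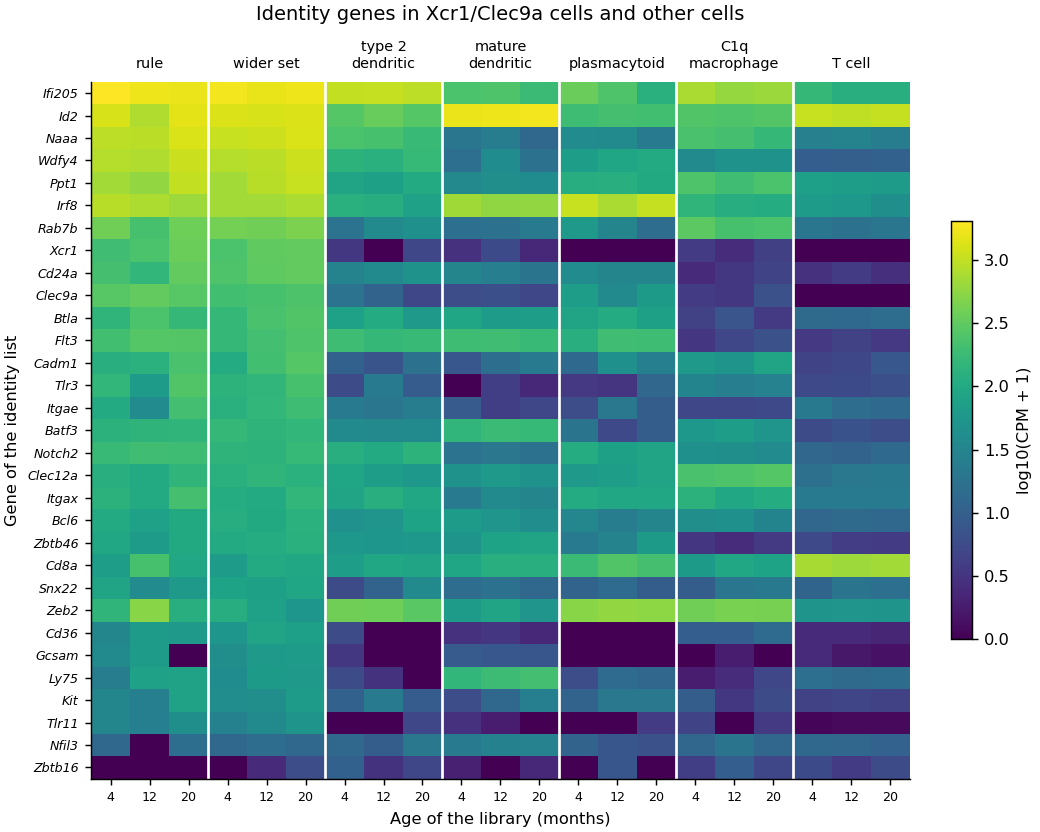
Heat map of the listed type 1 dendritic cell genes (rows) in the 58 cells of the rule, the wider set, the other dendritic classes, C1q macrophages and T cells (columns, 1 per library), coloured by log10(CPM + 1). Naaa, Tlr3, Cd24a and Itgae are higher in the wider set than in every other class in the 3 libraries, while Zeb2, Cd8a and Itgax are not.

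Markers of other cells were summed over whole lists. Some lists hold genes that chose the cells: C1qa, C1qb, C1qc, Cd3d, Cd3e, Cd3g, Ncr1, Klrb1c, Siglech and Fscn1. The C1q genes also chose the macrophages and the Cd3 genes the T cells. Part of the differences from those classes was therefore fixed by the choice. The 13 monocyte and macrophage markers came to 1675, 1592 and 1726 CPM in the wider set. They came to 1539, 1616 and 1843 CPM in T cells and to 18523, 19376 and 22629 CPM in C1q macrophages. Trem2 and Mrc1, both macrophage genes, were at 0 in some libraries of the 58 cells, and Mrc1 at 0 in the wider set at 12 months. The 12 T-cell markers came to 755, 1225 and 1159 CPM in the wider set, with none at 0, against 681, 1018 and 861 CPM in macrophages and 10817, 10036 and 9911 CPM in T cells. The 10 NK markers came to 1048, 950.5 and 611 CPM, against 1012, 1007 and 637 CPM in macrophages. The 8 B-cell markers came to 159, 167 and 137 CPM with the defining Ms4a1 at 0 in each library. The 10 plasmacytoid markers came to 577, 591 and 512 CPM in the wider set, against 637, 529.9 and 549 CPM in T cells, but to 1890, 4084 and 1088 CPM in the 58 cells, the 10 Siglech cells included. The 9 monocyte markers came to 4603, 3659 and 3441 CPM, the 10 type 2 markers to 162, 310.1 and 129 CPM, the 10 mature markers to 118, 204 and 156 CPM, the 8 neutrophil markers to 39.4, 48.3 and 42.1 CPM, the 8 mast cell or basophil markers to 33.9, 32.7 and 25.1 CPM and the 12 melanoma or stroma markers to 54.3, 51.4 and 59.2 CPM. The part of RNA from other cells in the differences between ages was not tested.

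The comparison between ages asked which genes of these cells differed with the age of the host, against the 4-month library. Genes at a mean of 50 CPM or more were read, and a gene was called past 1.5-fold on the point value. In the 58 cells 38.3% of 3704 genes were called at 12 months, 20% higher and 18.3% lower, and 30.6% at 20 months, 14.5% higher and 16.1% lower. In the wider set, 9.79% of 3505 genes were called at 12 months, 4.65% higher and 5.14% lower, and 8.56% at 20 months, 4.65% higher and 3.91% lower. The median log2 ratio over these genes was -0.03 and -0.02. Without the 10 Siglech cells 41.1% of 3594 genes were called at 12 months, 20.3% higher and 20.8% lower, and 31.4% at 20 months, 15.7% higher and 15.8% lower. Because a gene at the 50 CPM limit rests on few counts in the 58 cells, the wider set is described gene by gene, with the 58 beside it.

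Of the identity genes more lay above no change than below it at 20 months. Of 27 genes read in the wider set, 9 were higher past 1.5-fold at 20 months and 1 was lower, 24 lay above no change and 3 below, and the median log2 ratio was 0.37. Without the 4 rule genes 8 of 23 were higher and 1 lower, with a median of 0.30, where all 3505 genes had 4.65% higher and 3.91% lower. The 8 were Cadm1, Itgae, Tlr3, Btla, Gcsam, Ppt1, Cd8a and Ly75, and the lower one was Zeb2. Of the 8, Cd8a and Ly75 were not above all other classes by the measure used earlier. At 12 months 4 of 27 were higher and 0 lower, with a median of 0.13. Among the 58, 8 of 26 were higher and 0 lower at 20 months with a median of 0.33, and 5 were higher and 5 lower at 12 months with a median of -0.14. All 3704 genes read in the 58 had 14.5% higher and 16.1% lower at 20 months. At 12 months they had 20% higher and 18.3% lower, so the 12-month counts are near the share of all genes. Without the 10 Siglech cells 8 of 27 were higher and 2 lower at 20 months, with a median of 0.23. The median at 20 months in the wider set ran from 0.14 to 0.45 over the alternative rules, and was 0.21 when Xcr1 and Clec9a had to sum to at least 4. The summed counts of Xcr1 and Clec9a per cell of the wider set had a median of 3, 4 and 5 counts by age. Its cells at the minimum sum of 2 numbered 23, 11 and 15. Their Naaa stood at 623, 951 and 1109 CPM and their Cadm1 at 32.1, 52.8 and 80.5 CPM, both lowest at 4 months. Their Lyz2 stood at 1374, 1152 and 510 CPM and their Zeb2 at 243, 180 and 35.8 CPM, both highest at 4 months. The part of these cells in the differences between ages was not tested.

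Cadm1, an adhesion molecule that binds CRTAM on activated T and NK cells and lies on chromosome 9, 47530173 to 47857637, plus strand, differed most among the identity genes. It stood at 107 CPM at 4 months, 201 at 12 months and 272 at 20 months in the wider set, from 79, 129 and 271 counts. The order of the libraries was that of age, with log2 ratios against 4 months of 0.91 (0.49 to 1.33) for the 12-month and 1.34 (0.98 to 1.72) for the 20-month library. The 58 cells stood at 116, 129 and 226 CPM, a log2 ratio of 0.16 (-1.04 to 1.24) and 0.97 (0.19 to 1.75). With the stricter C1q limit, which left 12 cells at 12 months, the 12-month ratio was -1.39. Macrophages stood at 56.1, 59.7 and 83.7 CPM and T cells at 3.80, 4.19 and 6.98 CPM. With each cell thinned to 3500 counts, Cadm1 was detected in 21.7%, 40.4% and 45.3% of the wider set, and unthinned in 34.8%, 49.1% and 61.3%. T cells, with median counts of 5646 to 6445, had 1.17%, 1.35% and 2.38% thinned and 2.30%, 3.01% and 4.13% unthinned.

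Other surface and lysosomal genes of the type were also higher at 20 months. Btla, an inhibitory receptor that binds HVEM, stood at 156, 226 and 259 CPM, a log2 ratio of 0.53 (0.17 to 0.90) at 12 months and 0.73 (0.41 to 1.06) at 20 months. With the stricter C1q limit its ratios were -0.48 and 1.56. Tlr3 had a ratio of 0.13 (-0.29 to 0.54) and 0.67 (0.32 to 1.02), so that only the 20-month library stood out, and it was -0.087 when cells were thinned before the rule was applied. Itgae had 0.32 (-0.10 to 0.75) and 0.63 (0.26 to 1.00), with -0.80 at 12 months under the stricter C1q limit. Macrophages and T cells stood at most at 14.2 CPM of Btla and 30.1 CPM of Tlr3.

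Ppt1 stood at 713, 889.7 and 1076 CPM, a log2 ratio of 0.32 (0.15 to 0.49) and 0.59 (0.44 to 0.75), in the order of age. Naaa, with more counts than most identity genes, had 0.09 (-0.06 to 0.23) and 0.30 (0.17 to 0.43) and was not past 1.5-fold. Macrophages stood at 238, 206 and 227 CPM of Ppt1 and at 220.2, 211 and 166 CPM of Naaa. Among the 58 the 20-month ratios were 0.71 (0.01 to 1.41) for Tlr3, 0.98 (0.15 to 1.80) for Itgae, 0.49 (0.16 to 0.82) for Ppt1, 0.47 (0.19 to 0.76) for Naaa and 0.16 (-0.68 to 0.96) for Btla. All 5 point values were above 0, but 48 of the 58 cells are part of the wider set. Without the 10 Siglech cells the 4-month and 20-month levels were 173 and 269 CPM for Tlr3 and 118 and 216 CPM for Itgae. They were 793 and 1039 CPM for Ppt1, 1066 and 1363 CPM for Naaa, and 164 and 169 CPM for Btla. At 12 months the 58 cells had Itgae at 38.8 and Tlr3 at 64.6 CPM, from 3 and 5 counts, lower than at either other age.

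The transcription factors of the type differed less. Irf8 had a log2 ratio of -0.01 (-0.20 to 0.17) at 12 months and 0.19 (0.03 to 0.35) at 20 months in the wider set, Batf3 -0.20 (-0.61 to 0.21) and -0.07 (-0.43 to 0.29), and Id2 -0.12 (-0.25 to 0.02) and 0.00 (-0.12 to 0.12). The intervals of the 20-month ratios exclude a 1.5-fold difference for all 3. Irf8 in the 58 cells stood at 883, 788 and 657 CPM, lowest at 20 months, with a ratio of -0.43 (-0.80 to -0.07) at 20 months. The Siglech cells stood at 1072, 1097 and 424 CPM of Irf8, and without them the 58 stood at 857, 705 and 670 CPM.

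Zeb2 was the gene of the identity list that was lower past 1.5-fold at 20 months. It is a factor of plasmacytoid and type 2 dendritic cells and did not mark the type 1 cells. Its 114, 76.4 and 53.2 CPM in the wider set gave a log2 ratio of -0.58 (-1.12 to -0.05) at 12 months and -1.10 (-1.63 to -0.59) at 20 months. T cells stood at 50.4, 51.7 and 50.5 CPM, so the 20-month level was near that of T cells. The 20-month ratio was 0.090 with the stricter C1q limit and -0.36 with a sum of Xcr1 and Clec9a of at least 4. Zeb2 in the 58 cells stood at 144, 529.8 and 117 CPM, highest at 12 months, where 3 of 11 cells had Siglech and those 3 stood at 1402 CPM (the other 8 at 295 CPM).

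The growth factor receptors, 10 genes read, had 1 higher and 1 lower at 20 months with a median of -0.03, and 0 higher and 1 lower at 12 months. The shares over all 3505 genes were 4.65% higher and 3.91% lower at 20 months, and 4.65% and 5.14% at 12 months. Flt3, used by the rule, stood at 157, 209 and 251 CPM with a ratio of 0.67 (0.35 to 1.00) at 20 months. Ifnar2, a chain of the type I interferon receptor, was the lower one at 74.7, 81.0 and 47.1 CPM, a log2 ratio of -0.66 (-1.26 to -0.07), beside 43.4, 47.2 and 46.5 CPM in T cells. Csf2rb, the shared beta chain for GM-CSF, stood at 119, 164 and 156 CPM, higher in both older libraries but not past 1.5-fold. Pattern receptors had 4 genes read, with Tlr3 higher at 20 months and Aim2, a sensor of DNA in the cytosol, higher at 12 months at 82.8, 128 and 107 CPM.

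**Figure D4:**
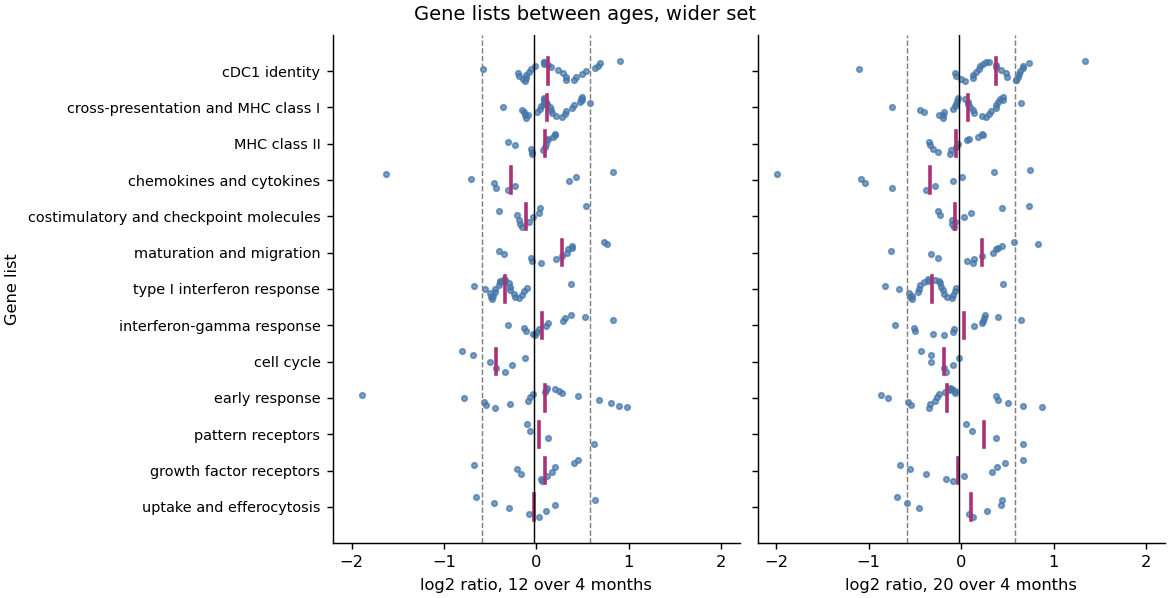
Log2 ratio of each gene to the 4-month library in the wider set at 12 and 20 months (points), grouped by list, with each list's median (coloured bar), the median of all genes (solid line) and 1.5-fold (dashed lines). The identity genes have a median of 0.37 at 20 months, and the type I interferon genes have -0.34 and -0.32 at 12 and 20 months.

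Antigen presentation genes were read next. Of 29 genes of cross-presentation and MHC class I, 0 were past 1.5-fold at 12 months, and at 20 months 1 was higher and 1 lower, with medians of 0.12 and 0.07. These 2 of 29 are near the 8.56% of all genes. The higher one was Nlrc5, the transactivator of MHC class I genes, at 105, 129 and 164 CPM and a ratio of 0.65 (0.25 to 1.06). T cells stood at 105, 100.3 and 110.3 CPM of it. The lower one was Cybb, the NADPH oxidase subunit that limits acidification of the phagosome, at 138, 108 and 82.3 CPM and a ratio of -0.75 (-1.19 to -0.32), where T cells stood at 74.5, 66.1 and 75.4 CPM. Wdfy4, used by the rule, had 0.38 (0.24 to 0.52), and Rab43, a GTPase of the cross-presentation route, 0.46 (0.14 to 0.78).

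No MHC class II gene of 13 was past 1.5-fold at either age. H2-Aa, the alpha chain of I-A, stood at 6646, 6409 and 5257 CPM with a ratio of -0.34 (-0.39 to -0.28) at 20 months. H2-Eb1, the beta chain of I-E, stood at 5943, 6848 and 6748 CPM with 0.18 (0.13 to 0.24). The 2 chains thus differed in opposite directions, and macrophages showed H2-Aa at 7764, 8677 and 6651 CPM, lowest at 20 months as well.

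Chemokine genes differed in both directions. Ccl6, a macrophage chemokine, stood at 139.8, 45.2 and 35.1 CPM in the wider set, a log2 ratio of -1.63 (-2.28 to -1.02) at 12 months and -1.99 (-2.59 to -1.43) at 20 months. T cells stood at 39.6, 41.0 and 36.9 CPM, so the 4-month cells lay well above that level and the others near it, and macrophages stood at 214, 225 and 235 CPM. The 58 cells stood at 239.8, 25.8 and 65.7 CPM, again highest at 4 months. A few cells carried much of it: without the 3 highest cells of each library the ratios were -0.73 and -0.95, and with the stricter C1q limit the 20-month ratio was 0.090.

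Cxcl10, an interferon-induced ligand of CXCR3, stood at 448, 332 and 212 CPM, a log2 ratio of -0.43 (-0.69 to -0.18) and -1.08 (-1.34 to -0.83). T cells stood at 427, 353 and 348 CPM and macrophages at 852, 821 and 860.1 CPM, so the cells lay near the T-cell level at 4 and 12 months and under it at 20 months. Cxcl10 in the 58 cells stood at 567, 569 and 263 CPM, a ratio of -1.11 (-1.68 to -0.57) at 20 months. Requiring a sum of Xcr1 and Clec9a of at least 4 turned the 20-month ratio of the wider set to 0.19. It was -0.087 with Xcr1 and Clec9a each required, -2.07 with thinning before the rule and -1.96 without dividing cells. At 12 months it was 1.496 with the stricter C1q limit and -1.53 with thinning. Cxcl9, its partner ligand, stood at 307, 545 and 289 CPM, a ratio of 0.83 (0.58 to 1.08) at 12 months and -0.09 (-0.34 to 0.17) at 20 months, and T cells stood at most at 23.6 CPM. The 12-month ratio of Cxcl9 was -0.12 with the stricter C1q limit. Cxcl9 was thus highest at 12 months, in the 58 cells too, where it stood at 328, 478 and 285 CPM.

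Ccl4, an inflammatory chemokine, stood at 365, 265 and 178 CPM, a log2 ratio of -1.04 (-1.32 to -0.76) at 20 months, and T cells stood at 1271, 1110.1 and 979 CPM. Ccl5, a chemokine that draws T cells, stood at 295, 396 and 493 CPM, a ratio of 0.74 (0.51 to 0.98), beside 4408, 4282 and 5625 CPM in T cells. Macrophages stood at 813, 1057 and 1041 CPM of Ccl5, above the wider set in each library. The list of chemokines and cytokines had 10 genes read, with 2 higher and 2 lower at 12 months (median -0.27) and 1 higher and 4 lower at 20 months (median -0.33). Over all 3505 genes 4.65% were higher and 5.14% lower at 12 months, and 4.65% and 3.91% at 20 months. Il12b, the shared chain of interleukins 12 and 23, was detected in 0 of 69, 4 of 57 and 3 of 106 cells of the wider set after thinning to 3500 counts, or 0% (0 to 5.21), 7.02% (1.95 to 17.0) and 2.83% (0.588 to 8.05). T cells had 2.12%, 3.07% and 1.64%, and unthinned shares were 2.90%, 12.3% and 7.55% beside 3.48%, 6.45% and 3.19% of T cells, so Il12b was not distinguishable from background at this depth.

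**Figure D5:**
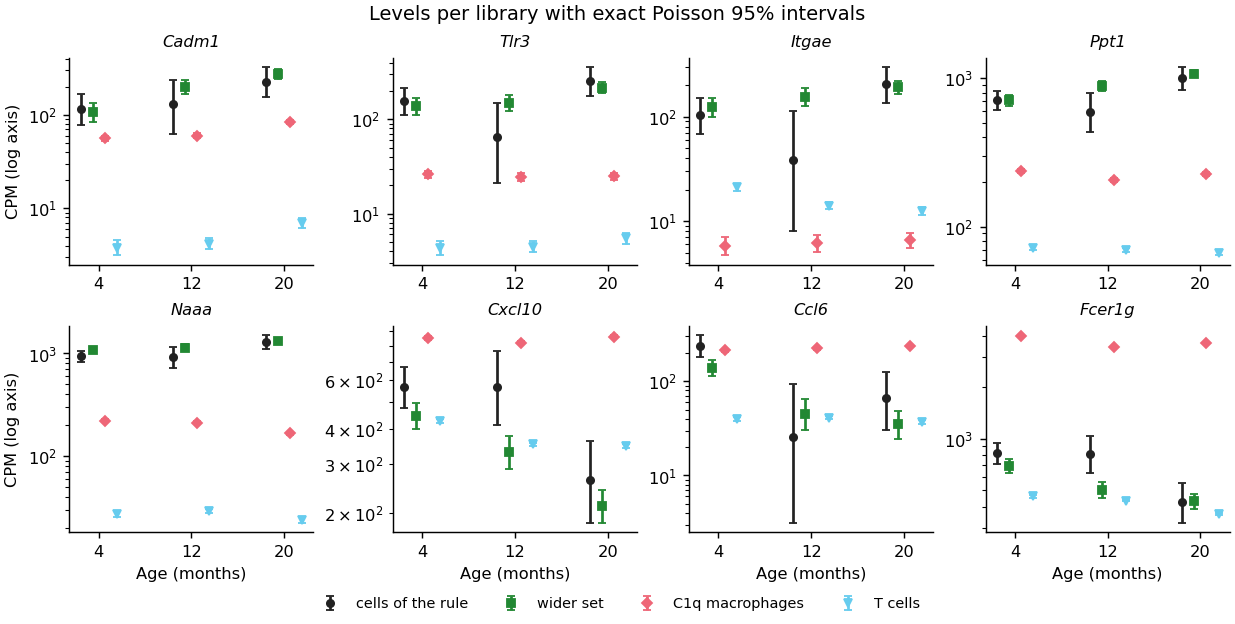
Level per library (CPM on a log axis, exact Poisson 95% intervals) of Cadm1, Tlr3, Itgae, Ppt1, Naaa, Cxcl10, Ccl6 and Fcer1g in the 58 cells of the rule, the wider set, C1q macrophages and T cells. In the wider set Cadm1 is at 107, 201 and 272 CPM and Ccl6 at 139.8, 45.2 and 35.1 CPM.

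Most type I interferon response genes lay lower in the older libraries of the wider set. Of 24 genes, 23 lay below no change at each age, with medians of -0.34 at 12 months and -0.32 at 20 months, while 1 at 12 months and 2 at 20 months were lower past 1.5-fold and 0 were higher. Of all 3505 genes 5.14% at 12 months and 3.91% at 20 months were lower, and 4.65% at each age were higher. Ifit3, an interferon-induced inhibitor of translation, stood at 419, 369 and 263 CPM with a ratio of -0.67 (-0.92 to -0.43) at 20 months, and its near copy Ifit3b, with which it can share reads, at 122, 99.7 and 69.2 CPM. Ifit3 in T cells, at 807, 653 and 685 CPM, was also highest at 4 months. Isg15, a ubiquitin-like modifier, stood at 980.1, 776 and 739 CPM, and Irf7, the factor that amplifies the response, at 1269, 1039 and 990.1 CPM. T cells of the same libraries were also highest at 4 months, with Isg15 at 987, 835 and 869.7 CPM and Irf7 at 754, 655 and 559 CPM. Among the 58 cells the medians of the list were 0.14 and -0.13, and with a sum of Xcr1 and Clec9a of at least 4 the 20-month median of the wider set was 0.06, while with the stricter C1q limit the 12-month median was 0.27. Of 14 genes of the interferon-gamma response 1 was higher at each age and 1 lower at 20 months, with medians of 0.06 and 0.03.

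The Fc receptor chain Fcer1g and its relative Tyrobp, adaptors that signal for activating receptors of myeloid cells, were lower in the older libraries. Fcer1g stood at 692, 503 and 429 CPM in the wider set, a log2 ratio of -0.46 (-0.67 to -0.26) and -0.69 (-0.88 to -0.50). Tyrobp stood at 843, 629.5 and 532 CPM, a ratio of -0.67 (-0.83 to -0.50) at 20 months. The 20-month ratios of the 58 cells were -0.95 (-1.40 to -0.53) and -0.82 (-1.20 to -0.46). T cells stood at 459, 435 and 361 CPM of Fcer1g and macrophages at 3988, 3453 and 3607 CPM, and Fcgr1, the high-affinity IgG receptor, stood at 183, 117 and 122 CPM in the wider set, beside 899.7, 773 and 868 CPM in macrophages. Lyz2 was also highest at 4 months, at 939, 731 and 612 CPM in the wider set, as were its 9 monocyte markers at 4603, 3659 and 3441 CPM, and their part in the values of Fcer1g and Tyrobp was not tested. Tyrobp in T cells stood at 389.7, 389.5 and 311 CPM and in macrophages at 2078, 1868 and 1986 CPM. The list of uptake and efferocytosis genes, 8 read, had 1 higher and 1 lower at 12 months and 0 higher and 1 lower at 20 months, with medians of -0.03 and 0.11. Beside this, all 3505 genes had 4.65% higher and 5.14% lower at 12 months, and 4.65% and 3.91% at 20 months.

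Maturation and migration genes, 13 read, had 2 higher and 0 lower at 12 months and 1 higher and 1 lower at 20 months, with medians of 0.27 and 0.22. The whole of 3505 genes had 4.65% higher and 5.14% lower at 12 months, and 4.65% and 3.91% at 20 months. Nfkb2, the precursor of the NF-kappaB subunit p52, stood at 36.7, 62.3 and 65.2 CPM from 27, 40 and 65 counts, a log2 ratio of 0.77 (0.03 to 1.53) and 0.83 (0.16 to 1.54), which became -0.15 and 0.021 with a sum of Xcr1 and Clec9a of at least 4. Nfkb2 in T cells stood at 51.4, 45.9 and 44.0 CPM. Ccr2, the receptor that draws monocyte-derived and precursor cells from blood, stood at 261, 196 and 154 CPM, a ratio of -0.75 (-1.07 to -0.44) at 20 months, beside T cells at 321, 311 and 278 CPM. Ccr7, which guides mature dendritic cells to lymph nodes, was detected in 4.35%, 10.5% and 5.66% of the wider set after thinning and in 15.9%, 29.8% and 12.3% unthinned. T cells had 12.5%, 19.2% and 18.1% thinned and 17.9%, 29.99% and 26.1% unthinned. How much of the Ccr7 in T cells is their own was not tested, so they give no background level for it. The Fscn1 limit also lowers the Ccr7 share. Cells with at least 2 Fscn1 counts that met the other wider limits, 4, 2 and 1 by age, stood at 2838, 3129 and 1593 CPM of Ccr7. Costimulatory and checkpoint genes, 10 read, had 0 past 1.5-fold at 12 months and 1 higher, Btla, at 20 months, with medians of -0.12 and -0.07. Cd83, a maturation marker, stood at 309.5, 302 and 334 CPM,, higher than in macrophages at 89.1, 116 and 86.8 CPM.

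Early response genes, which dissociation of tissue can induce, had 4 higher and 2 lower of 20 at 12 months and 2 higher and 2 lower at 20 months, with medians of 0.10 and -0.15. Among all 3505 genes 4.65% were higher and 5.14% lower at 12 months, and 4.65% and 3.91% at 20 months. The heat shock genes Hspa1a and Hspa1b, near-identical copies, were higher at both ages. At 12 months this turned to -0.14 and -0.36 when cells were thinned before the rule, and to 0.27 and 0.019 with a sum of Xcr1 and Clec9a of at least 4. Hspa1a stood at 77.4, 153 and 141 CPM, a ratio of 0.98 (0.50 to 1.48) and 0.87 (0.42 to 1.34), and T cells at 42.3, 82.8 and 70.8 CPM had the same order. Atf3, a stress-induced factor, stood at 242, 262 and 139 CPM, and macrophages at 270.0, 355 and 199.5 CPM had the same order. The part of dissociation in these values was not tested.

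Genes outside the lists that mark the cells against other dendritic classes also differed. Anpep, the surface aminopeptidase CD13, stood at 66.5, 84.1 and 121 CPM, a ratio of 0.87 (0.38 to 1.38) at 20 months, and T cells at most at 1.67 CPM. Slc8b1, a mitochondrial sodium and calcium exchanger, stood at 152, 203 and 239.8 CPM, a ratio of 0.66 (0.33 to 0.99), in the order of age. Ccser1 had 0.67 (0.25 to 1.10) and Mctp1, a membrane protein with calcium-binding domains, 0.59 (0.33 to 0.85). Among the 58, Slc8b1 had -0.17 (-1.14 to 0.73), an interval that includes no change.

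Dividing cells were then counted in the 58 and in the wider set. Cells with at least 3 counts of 5 cycle genes (Mki67, Top2a, Ccna2, Cdk1, Birc5) numbered 4 of 30, 0 of 11 and 5 of 17 among the 58. In the wider set they were 14 of 69 (20.3%, 11.6 to 31.7), 7 of 57 (12.3%, 5.08 to 23.7) and 21 of 106 (19.8%, 12.7 to 28.7). The intervals of the 3 ages overlap. T cells had 9.74%, 13.1% and 13.4% and macrophages 4.48%, 5.39% and 3.99%. After thinning to 3500 counts the wider set had 13.04%, 8.77% and 10.4%, against 5.70%, 7.92% and 9.85% of T cells. Of 7 cycle genes read in the wider set all lay below no change at both older ages, with medians of -0.44 and -0.19, and 2 were lower past 1.5-fold at 12 months. Of all 3505 genes 5.14% were lower at 12 months. Without the dividing cells the medians of the cycle genes were 0.09 and 0.17. The 58 cells ran the other way at 20 months: of 5 cycle genes read 4 were higher past 1.5-fold and 0 lower, with a median of 0.87, and at 12 months 0 were past it, with a median of 0.11. All genes read in the 58 had 14.5% higher and 16.1% lower at 20 months. Cell cycle was the 1 list with a median past 1.5-fold at 20 months in the 58 cells.

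A few genes were compared between dividing and other cells of the wider set. Xcr1 stood at 229, 250.2 and 231 CPM in dividing cells and at 235, 327 and 361 CPM in the others, near each other at 4 months and lower in dividing cells at 12 and 20 months. Cadm1 stood at 47.97, 160.2 and 183 CPM in dividing cells and at 127, 209 and 301 CPM in the others, lower in dividing cells in each library. Cxcl9 stood at 96.0, 270 and 146 CPM against 379, 596 and 336 CPM. Stmn1, a microtubule regulator of cycling cells outside the dividing rule, stood at 405, 290 and 276 CPM against 54.6, 81.2 and 61.3 CPM. Median counts were 12606, 14864 and 11253 in dividing cells and 10453, 10331 and 8513 in the others. Levels are shares of each cell's total, and the part of the larger total in dividing cells was not tested.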

How the data were processed

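Immune cells of 3 libraries, 1 per age, were analysed from the raw counts per gene and cell that the authors deposited (55401 listed genes). The submitters' processing notes name STAR 2.7.10a and GRCm38, and the cell caller, annotation and use of strand are not given in the sources used here. Of the listed identifiers 99.5% occur in GENCODE M21, from which positions were taken. Counts were summed over the cells of a class in each library and scaled to 1000000 (CPM), with Clopper-Pearson, Poisson, conditional binomial and Newcombe intervals at 95%, and a gene at 0 counts was set to 3 counts for a ratio. Depth was 110371225, 127850782 and 119873564 counts. Genes at a mean of 50 CPM or more were read, and 1.5-fold was the threshold. Of 399 symbols in 14 lists and the markers, 4 had no listed gene. The populations described were the 58 cells and the wider set.

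The members, the lists and the wider set were chosen with earlier results of these data known. Named genes were the identity list, up to 6 genes per list with the largest 20-month ratios, up to 10 per direction among genes at 100 CPM or more lying in the order of age, and 15 genes marking the cells against other dendritic classes. 1 gene that these rules name is not reported here. The third of these rules left no gene in the 58 cells and was applied to the wider set. Doublets were not removed. Scrublet (scanpy 1.11.5) scores and mitochondrial shares were read. Among the highest 6% of scores or above 15% mitochondrial counts were 2, 0 and 2 of the 58 cells and 2, 1 and 2 of the wider set. The scripts were tested on simulated data, with Python 3.11.15, numpy 2.4.6, pandas 2.3.3, scipy 1.17.1 and matplotlib 3.10.9. Alternatives to the rule, the filter, the scaling and the fold are in the closing section. The list of lymphocyte-derived partners is read there too.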

Additional observations from a re-analysis of the deposited data

How the results depend on the processing

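No paired analysis was possible because each age is 1 library. The wider set, the form without Siglech cells and the forms without lymphocyte or C1q limits were chosen after seeing the data. For the 58 cells, the difference in share between 20 and 4 months (-0.0927 percentage points) became 0.0120 with Xcr1 and Clec9a each required, 0.126 with cells thinned to 3500 counts before the rule, 0.213 without lymphocyte limits and 0.242 in the wider set. Genes past 1.5-fold at 20 months (1135) numbered 2140 with C1q under 3, 636 thinned, 279 without lymphocyte limits, 300 in the wider set, 10616 with no filter, 407 at 100 CPM and 455 at 2-fold. At 12 months (1418) they numbered 929 thinned, 241 without lymphocyte limits, 343 in the wider set, 11079 with no filter, 521 at 100 CPM and 642 at 2-fold. Lists with a median past 1.5-fold at 12 months (0) numbered 2 thinned and 1 each without doublets, with Xcr1 and Clec9a of at least 4, with C1q under 3, without a C1q limit, without Siglech cells, without dividing cells, as the mean CPM per cell, with no filter and at 100 CPM. At 20 months (1) they numbered 3 with C1q under 3, 2 without the 3 highest cells, and 0 thinned, without lymphocyte limits, in the wider set and at 2-fold.

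For the wider set, the difference in share at 20 months (0.242) became -0.0585 with C1q under 3, which left 29, 12 and 21 cells; the cause was not tested. Genes past 1.5-fold at 12 months (343) numbered 519 with Xcr1 and Clec9a of at least 4, 1104 with C1q under 3, 639 thinned, 10123 with no filter, 88 at 100 CPM and 57 at 2-fold. At 20 months (300) they numbered 1043 with C1q under 3, 9906 with no filter, 88 at 100 CPM and 71 at 2-fold. Lists with a median past 1.5-fold (0 at both ages) numbered 1 with C1q under 3 and 1 without the 3 highest cells at 12 months, and 2 with C1q under 3 and 1 thinned at 20 months. Of 1920 gene ratios under the alternatives 171 took the other sign, 43 of them with C1q under 3 and 31 thinned, and 12 of the 171 were past 1.5-fold as reported. Of these, with Xcr1 and Clec9a of at least 4, Ly75 became -0.033 and Nfkb2 -0.15 at 12 months, and Cxcl10 0.19 and Ly75 -0.0033 at 20 months. With C1q under 3, Cadm1 became -1.39 and Cxcl9 -0.12 at 12 months, and Ccl6 0.090 and Zeb2 0.090 at 20 months. Thinned, Hspa1a became -0.14 and Hspa1b -0.36 at 12 months, and Gcsam -0.075 and Tlr3 -0.087 at 20 months. The cause was not tested. The 58 cells rest on 77381 to 250241 summed counts per library.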

Other observations

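Ligands of the receptors that these dendritic cells carry were read in lymphocytes of the same libraries. Xcl1, the ligand of XCR1, stood at 2441, 2823 and 2983 CPM in NK cells at 4, 12 and 20 months and at 499.9, 579 and 429 CPM in T cells. The wider set of dendritic cells stood at 151, 151 and 93.3 CPM of Xcl1 and macrophages at 148, 147 and 106 CPM, so its level in the dendritic cells was near that of macrophages in each library. Flt3l, the growth factor that FLT3 binds, stood at 42.8, 37.7 and 35.7 CPM in NK cells and at 42.2, 45.6 and 40.1 CPM in T cells. Ifng, which induces Cxcl9 and Cxcl10, stood at 301, 238 and 163 CPM in T cells and at 159, 113 and 96.5 CPM in NK cells, lowest at 20 months in both. Of the 6 lymphocyte-derived partner genes read in the wider set itself, 0 were past 1.5-fold at 12 months, and at 20 months 1 was higher (Ccl5) and 2 were lower (Xcl1 and Ccl4), with a median of -0.18. All 3505 genes had 9.79% past 1.5-fold at 12 months, and 4.65% higher and 3.91% lower at 20 months.

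Cells that met the positive criteria but had 10 or more C1q counts numbered 10, 9 and 26 with the wider lymphocyte limits. Their Lyz2 stood at 3409, 2113 and 1017 CPM and their Irf8 at 172, 119.8 and 610 CPM, so the 20-month cells outside that limit were nearer to the type 1 dendritic cells than those at 4 or 12 months. Xcr1 in them stood at 106, 94.1 and 368 CPM.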
